A study of Mus musculus with 2 samples.

Results

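The 44 genes described here encode the chains of collagen, the structural protein family of the extracellular matrix. They are all genes of the deposited feature list whose symbol is Col, a number, a lower-case a and a number, and they are 44 of the 33696 genes counted. Which genes belong rests on the names alone and on no measured value, but the set was taken up with earlier results of these data known. By the kind of structure they build, 11 are fibrillar, 6 belong to the network of basement membranes, 6 to beaded filaments, 3 to short chain networks, 9 to the fibril-associated collagens called FACITs, 2 to the multiplexins and 4 to the transmembrane collagens, with Col7a1 of anchoring fibrils and the unclassified pair Col26a1 and Col28a1 making up the rest.

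The counts come from single-cell RNA sequencing of tibialis anterior (TA), a muscle of the lower leg, in 2 libraries, 1 labelled WT and 1 labelled KO. Each of them pooled 10 muscles from 5 male mice of its strain. The gene removed, the cells it was removed from and the age of the mice are not stated in the labels used here, and the condition of the muscle is given only as ND, an abbreviation that is not spelled out. Both carry the same batch label. The cells are labelled as fibro-adipogenic progenitors (FAPs), the resident mesenchymal cells of skeletal muscle, but they were sorted for viability alone after digestion with Collagenase II and Dispase II. With 1 library per genotype, cells are not replicates, no test between genotypes was possible, and every interval below covers counting error only.

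Collagen chains wind in threes into a triple helix, and which chains a cell transcribes decides which trimers it can make. In muscle, fibrillar collagens give the epimysium, perimysium and tendon their tensile strength, type IV collagen forms the sheet of the basement membrane around fibres, vessels and nerves, and type VI collagen links that sheet to the interstitial matrix. Mesenchymal cells are the textbook source of the fibrils, while each cell that rests on a basement membrane can contribute to it.

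The WT-labelled library held 11360 barcodes and 38014703 UMIs (unique molecular identifiers, each standing for 1 captured transcript), and the KO-labelled library held 19531 barcodes and 101570863 UMIs. After filtering, 10181 and 17891 cells remained, with medians of 2939 and 4208 UMIs. Clustering without the collagen genes gave 32 clusters, and 29 of them were named from marker lists into 17 classes, each called by its markers with the ending -like. FAP-like cells were 15.2% of the retained cells in the WT-labelled library and 5.98% in the KO-labelled library, so most cells were not of the labelled type. Their defining marker Pdgfra stood at 750 and 400 CPM in the libraries labelled WT and KO, where CPM is the number of UMIs of a gene in each 1000000 UMIs of all cells of that class and library, and at no more than 45.6 CPM in any other class. Tnmd, the defining marker of tendon cells, stood at 2114 and 1166 CPM in tenocyte-like cells and at no more than 51.2 CPM elsewhere. Igf1, the growth factor gene named in the series title, had FAP-like levels of 369 and 394 CPM and tenocyte-like levels of 240 and 77.2 CPM, so its level in FAP-like cells was not lower in the KO-labelled library. It was at 61.8 and 10.2 CPM in macrophage and monocyte-like cells and at 83.2 and 26.7 CPM in venous endothelial-like cells. In perineurial-like cells it was higher in the KO-labelled library, at 73.8 and 144 CPM. A total of 61 barcode sequences occurred in both libraries.

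Free RNA in the suspension gives every droplet some collagen UMIs. It was read from T cell-, B cell- and neutrophil-like cells, 304 and 446 cells in the libraries labelled WT and KO, where all collagen chains together came to 150 and 271 CPM. The 5 cells richest in collagen in each library raised these sums, which were 112 and 89.0 CPM without them. A chain is called above free RNA in a class where it reached 10 CPM and 5 times its level in the full pool in both libraries. The 5 cells were left in for this rule, so the bar was in part set by them. By this rule 38 of the 44 chains were above free RNA in at least 1 class. The other 6, which are Col2a1, Col6a4, Col6a5, Col7a1, Col10a1 and Col17a1, were in none. Col2a1, the chain of cartilage fibrils, came nearest in tenocyte-like cells at 14.4 and 8.76 CPM, and Col6a5 in FAP-like cells at 15.2 and 8.71 CPM. Col10a1, a chain of growth plate cartilage, had 0 UMIs in the WT-labelled library and 6 in the KO-labelled library.

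**Figure D1:**
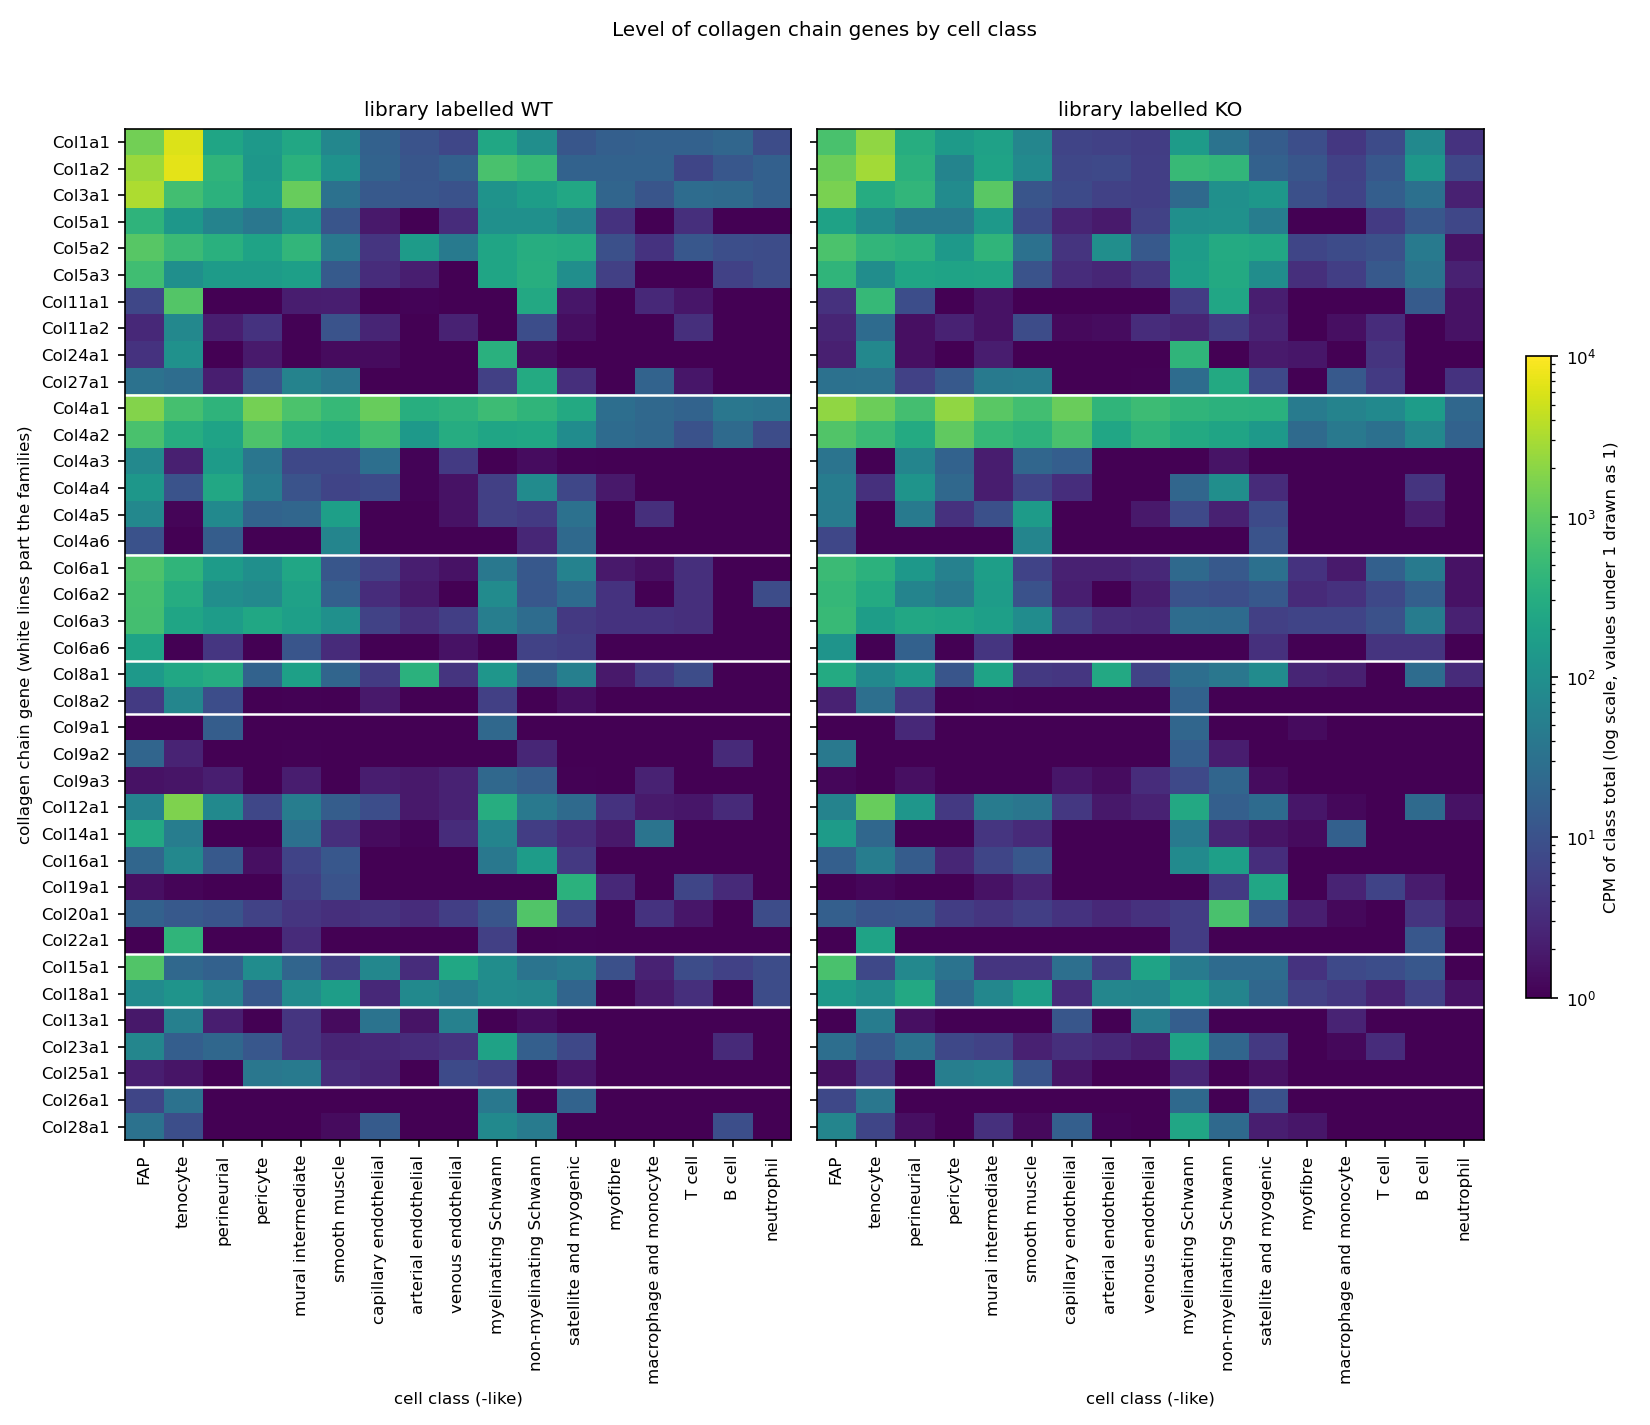
Level of the 38 collagen chain genes above free RNA in at least 1 class, as CPM of the class total on a log colour scale, with genes in rows by family, classes in columns and 1 panel per library. Fibrillar chains are brightest in FAP- and tenocyte-like cells (Col1a2 at 6878 CPM in tenocyte-like cells of the WT-labelled library), Col4a1 and Col4a2 are above free RNA in 12 and 11 classes, and Col19a1, Col22a1 and Col6a6 each light up in a single column.

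Summed over all chains, the most collagen UMIs were in tenocyte-like cells, at 20315 CPM in the WT-labelled library and 10907 CPM in the KO-labelled library, and in FAP-like cells, at 15735 and 11179 CPM. A middle tier followed. It held mural intermediate-like cells, which carry markers of both pericytes and smooth muscle, at 4805 and 4566 CPM. Non-myelinating Schwann-like cells were at 4112 and 3555 CPM, myelinating Schwann-like cells at 4062 and 3507 CPM and pericyte-like cells at 3781 and 4469 CPM. Perineurial-like cells, called after the sheath cells of nerve, were at 3649 and 4029 CPM. The order within this tier differed between the libraries. Capillary endothelial-like cells held 2078 and 2058 CPM, smooth muscle-like cells 1751 and 1882 CPM, satellite and myogenic-like cells 1794 and 1562 CPM, venous endothelial-like cells 1174 and 1365 CPM and arterial endothelial-like cells 1127 and 1131 CPM. Macrophage and monocyte-like cells, at 185 and 206 CPM, and myofibre-like cells, at 165 and 151 CPM, were near the level of free RNA.

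The make-up of these sums separated the classes. Fibrillar chains made up 76.6% of the collagen UMIs of tenocyte-like cells in the WT-labelled library and 59.5% in the KO-labelled library, and 57.8% and 43.9% in FAP-like cells. Basement membrane chains made up 88.7% and 93.8% in capillary endothelial-like, 61.4% and 73.5% in pericyte-like and 59.4% and 66.3% in smooth muscle-like cells. Beaded filament chains took 14.6% and 14.5% in FAP-like cells and 4.65% and 7.53% in tenocyte-like cells. FACIT chains took 25.9% and 26.2% in non-myelinating Schwann-like cells and 11.1% and 13.4% in tenocyte-like cells. The short chain network, here Col8a1 almost alone, took 31.6% and 23.2% in arterial endothelial-like cells, and the multiplexins summed to 295 and 273 CPM in venous endothelial-like cells.

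**Figure D2:**
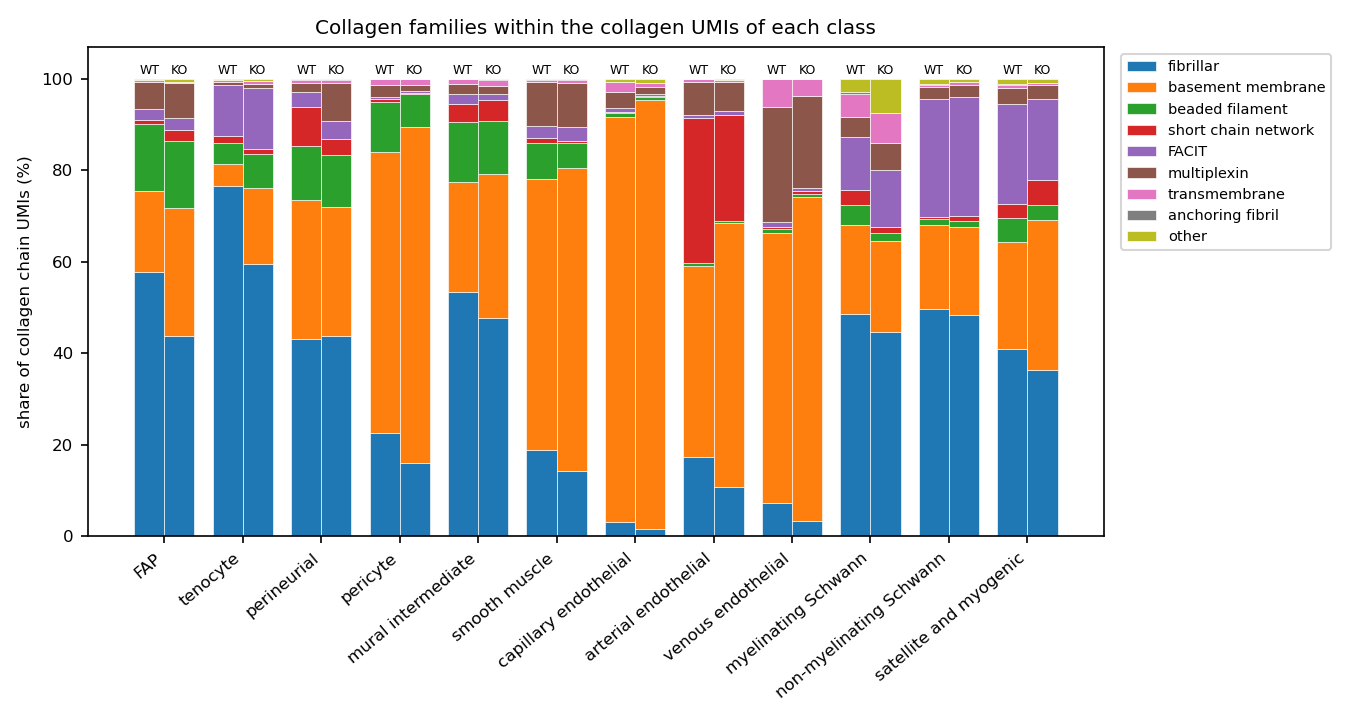
Share of collagen chain UMIs (%) by family in 12 classes, with the WT-labelled library on the left and the KO-labelled library on the right of each pair of stacked bars. Fibrillar chains fill most of the tenocyte-like bars (76.6% and 59.5%), basement membrane chains fill the capillary endothelial-like bars (88.7% and 93.8%), and the basement membrane share of FAP-like cells is 17.8% and 27.9%.

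FAP-like cells, 1547 in the WT-labelled library and 1070 in the KO-labelled library, had fibrillar chains at a lower share of all UMIs in the KO-labelled library. The type IV chains of the common basement membrane trimer were at a slightly higher share. These are relative levels and not amounts per cell. The summed collagen level had a log2 ratio, KO over WT, of -0.49 (-0.50 to -0.48). Of the 44 chains, 27 passed a floor of 10 CPM on the mean of both libraries and 100 UMIs, and 6 of these 27 were at least 2-fold lower in the KO-labelled library (22.2%) and 1 was at least 2-fold higher (3.70%). Over all 8876 genes past the same floors, 2.48% were at least 2-fold lower and 3.54% at least 2-fold higher. The median log2 ratio of the 27 chains was -0.51, against 0.01 over all genes, with 20 chains below 0 and 7 above. Median depth differed, at 5462 UMIs per cell in the WT-labelled library and 10509 in the KO-labelled library, and Pdgfra was lower as well. Summed satellite cell markers were at 237 and 689 CPM in these cells, summed capillary endothelial markers at 87.9 and 293 CPM, and summed erythroid markers at 425 and 93.9 CPM. Their part in the result was not tested.

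Fibrillar chains carried most of this difference. Col3a1 (ENSMUSG00000026043; GRCm38 chromosome 1, 45311538 to 45349706, plus strand), whose product forms type III homotrimers, was at 3201 CPM in the WT-labelled library (28376 UMIs, with an exact Poisson range of 3164 to 3239) and 1569 CPM in the KO-labelled library (18733 UMIs; 1546 to 1591), log2 ratio -1.03. Col1a2 (ENSMUSG00000029661; chromosome 6, 4504814 to 4541544, plus strand), the minor chain of the type I trimer, was at 2506 and 1245 CPM, log2 ratio -1.01 (-1.04 to -0.98). Col1a1 (ENSMUSG00000001506; chromosome 11, 94936224 to 94953042, plus strand), the major chain, was at 1425 and 698 CPM, log2 ratio -1.03 (-1.07 to -0.99). The 3 genes lie on 3 chromosomes and stood at nearly the same ratio. Over 20 alternative settings the ratio of Col1a1 ran from -1.54 to -0.83, that of Col1a2 from -1.32 to -0.84 and that of Col3a1 from -1.16 to -0.78, and each was past 2-fold in 17 of the 20, the exceptions being TMM scaling, clusters weighted equally and the Sbspon cluster left out. In the KO-labelled library 1 cell held 5.0% of the Col1a1 UMIs of the class.

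Type V chains, which nucleate and limit the width of type I fibrils, were lower by unequal amounts. Col5a1 was at 404 and 203 CPM, log2 ratio -0.99 (-1.07 to -0.92). Col5a3 stood at 602 and 414 CPM, log2 ratio -0.54 (-0.60 to -0.48), and Col5a2 at 903 and 732 CPM, log2 ratio -0.30 (-0.35 to -0.26). Counts of 3′ UMIs do not scale with transcript length, but capture and mapping can differ between genes, so a ratio between chains is compared here only between the libraries. There were 0.447 Col5a1 UMIs for each Col5a2 UMI in the WT-labelled library and 0.277 in the KO-labelled library, whereas the ratio of Col1a1 to Col1a2 UMIs was 0.569 and 0.561. By counting error, the proportion of the type V chains differed between the libraries and that of the type I chains did not.

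The upstream sequences of 3 fibrillar members are shown so that their letters can be read side by side, Col3a1 and Col5a1 for their ratios in FAP-like cells and Col11a1 for its ratio of -0.82 in tenocyte-like cells. They are the 250 bases before the RefSeq start on GRCm38.p6, 5′ to 3′ on the strand of the gene, for Col3a1 (chr1:45311288-45311537, plus strand), Col5a1 (chr2:27886175-27886424, plus strand) and Col11a1 (chr3:114030290-114030539, plus strand), and no GENCODE M21 exon lies in them. Capitals mark the motifs searched on both strands. The first, CCAAT, reads ATTGG on the other strand. The TATA motif TATAAA reads there as TTTATA. The GC motif GGGCGG becomes CCGCCC. No match overlaps another.
Col3a1: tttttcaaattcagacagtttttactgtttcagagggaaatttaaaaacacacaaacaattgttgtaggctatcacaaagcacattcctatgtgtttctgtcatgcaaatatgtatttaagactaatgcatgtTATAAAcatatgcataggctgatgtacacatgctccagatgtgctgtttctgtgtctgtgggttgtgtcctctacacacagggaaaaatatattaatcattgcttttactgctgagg
Col5a1: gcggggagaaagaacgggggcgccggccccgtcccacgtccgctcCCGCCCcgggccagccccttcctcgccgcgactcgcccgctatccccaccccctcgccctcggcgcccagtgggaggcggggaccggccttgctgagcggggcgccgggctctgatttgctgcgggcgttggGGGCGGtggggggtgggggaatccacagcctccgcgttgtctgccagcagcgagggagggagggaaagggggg
Col11a1: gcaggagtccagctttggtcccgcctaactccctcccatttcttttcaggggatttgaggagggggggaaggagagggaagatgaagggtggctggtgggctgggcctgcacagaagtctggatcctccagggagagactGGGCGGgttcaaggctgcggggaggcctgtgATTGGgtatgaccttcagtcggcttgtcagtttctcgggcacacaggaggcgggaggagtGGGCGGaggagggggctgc
Col3a1 holds 1 TATAAA, 117 bases before the start, and neither other motif, while Col5a1 holds 2 copies of GGGCGG or its reverse and Col11a1 holds 2 of those and 1 ATTGG. In 250-base windows of all 32851 RefSeq promoters, 33.85% hold CCAAT, 12.37% TATAAA and 32.74% GGGCGG, on either strand. Of the 35 members with a promoter in the table, 13 hold CCAAT, 5 TATAAA and 21 GGGCGG in at least 1 promoter. These letters are described as sequence and not as sites that bind a factor.

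Basement membrane chains went in both directions in FAP-like cells. Col4a1 (ENSMUSG00000031502; chromosome 8, 11198423 to 11312826, minus strand), the major chain of the common type IV trimer, was at 1796 CPM in the WT-labelled library and 2180 CPM in the KO-labelled library, log2 ratio 0.28 (0.25 to 0.31). Its partner Col4a2 was at 706 and 807 CPM, log2 ratio 0.19 (0.15 to 0.24). The pair are transcribed away from each other from starts 21 bases apart, and there were 2.54 and 2.70 Col4a1 UMIs per Col4a2 UMI. The chains of the other type IV trimer, known from the kidney glomerulus, were lower. Col4a4 was at 131 and 48.0 CPM, log2 ratio -1.43 (-1.60 to -1.30), Col4a3 at 77.6 and 34.2 CPM, log2 ratio -1.16 (-1.36 to -1.01), and Col4a5 at 73.0 and 46.7 CPM, log2 ratio -0.63 (-0.81 to -0.48).

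Type VI chains, which build the beaded filaments around the fibre, were also lower. Col6a1 was at 762 and 533 CPM (log2 ratio -0.52), Col6a2 at 663 and 466 CPM (-0.51) and Col6a3 at 638 and 498 CPM (-0.36). There were 1.15 and 1.14 Col6a1 UMIs per Col6a2 UMI and 0.837 and 0.934 Col6a3 UMIs per Col6a1 UMI in the WT- and KO-labelled libraries. Col6a6, an alternative to the third chain, was above free RNA in FAP-like cells alone among the 17 classes, at 212 and 119 CPM.

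Among the chains at lower level, Col8a1 of the short chain network was at 143 and 276 CPM, log2 ratio 0.95 (0.86 to 1.05), and 1 cell held 8.5% of its UMIs in the WT-labelled library. Col9a2, a chain of the type IX FACIT of cartilage, had 177 and 498 UMIs, log2 ratio 1.03 (0.81 to 1.32), and Col28a1, known from peripheral nerve, at 32.3 and 65.2 CPM, log2 ratio 0.99 (0.82 to 1.22). The ratio of Col9a2, the 1 chain at least 2-fold higher in this class, ran from 0.50 with clusters weighted equally to 2.08 with each library clustered alone and was past 2-fold in 15 of 20 settings. Both chains were concentrated in 1 cluster, described below by its leading gene Sbspon. Col14a1, a FACIT that coats type I fibrils, was at 258 and 154 CPM, and the transmembrane chain Col23a1 at 67.8 and 27.9 CPM, log2 ratio -1.25 (-1.48 to -1.09). The multiplexins, proteoglycan collagens of the basement membrane zone, differed: Col15a1 was at 834 and 707 CPM (log2 ratio -0.24) and Col18a1 at 83.6 and 145 CPM (0.78).

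**Figure D3:**
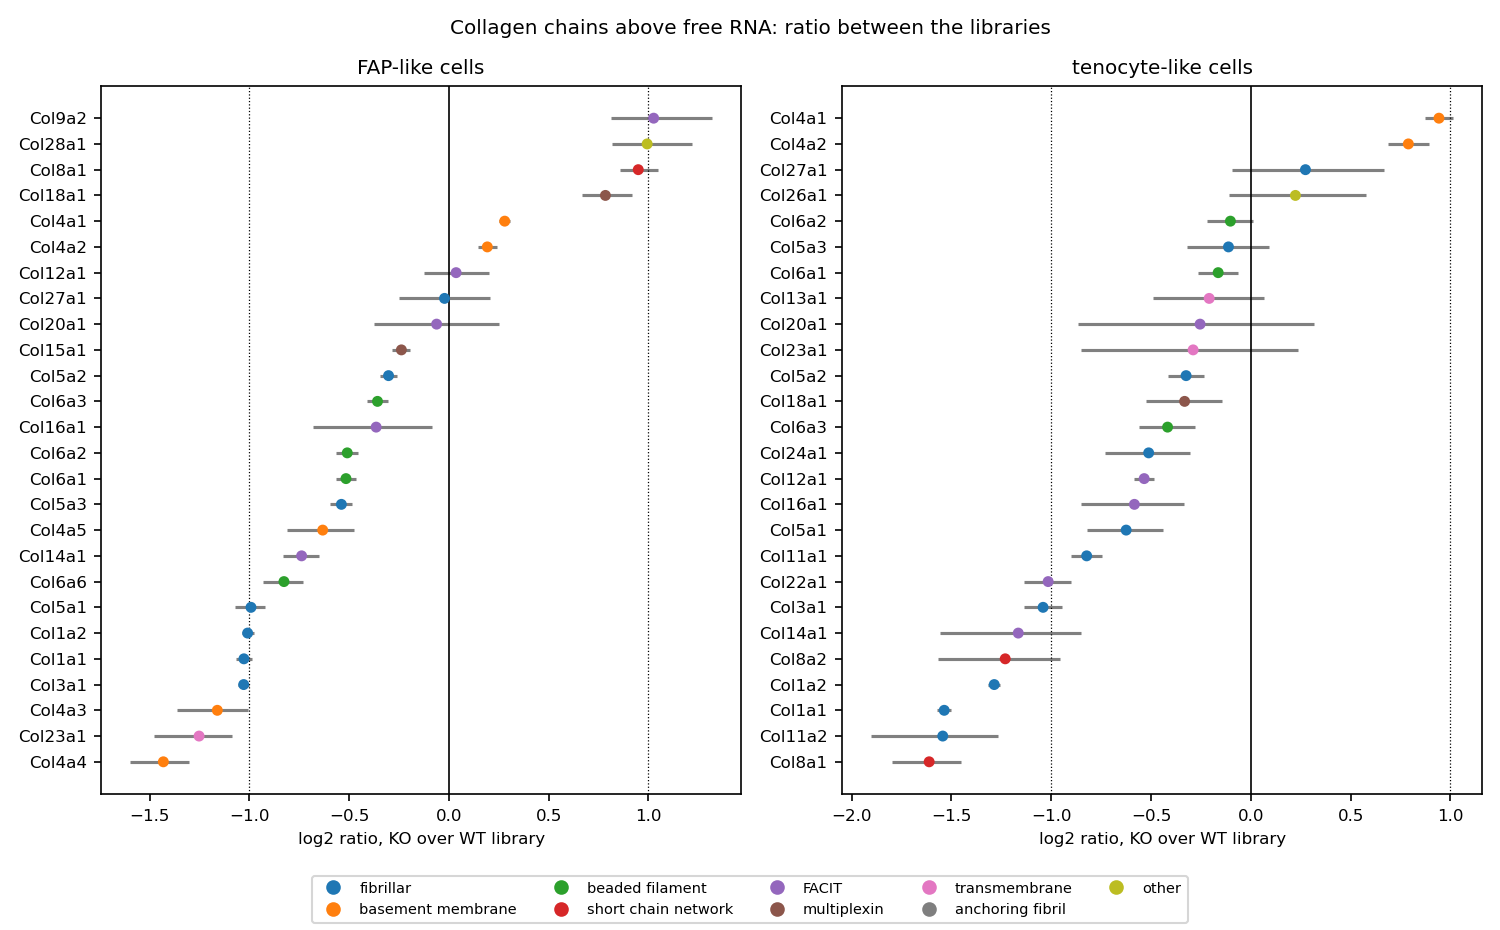
Log2 ratio of the KO-labelled library over the WT-labelled library for each of the 26 chains above free RNA in FAP-like cells (left) and the 26 in tenocyte-like cells (right), coloured by family, with bars for the 95% interval of counting error and dotted lines at 2-fold. In FAP-like cells Col1a1, Col1a2, Col3a1 and Col5a1 stand between -1.03 and -0.99 and Col4a1 at 0.28; in tenocyte-like cells Col1a1 stands at -1.54 and Col4a1 at 0.94.

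The FAP-like cells fell into 4 clusters, and the ratios were not alike in them. Collagen genes had no part in the clustering. The names rested on 11, 4, 7 and 10 of the 13 FAP markers in the clusters led by Cxcl14, Pde11a, Sbspon and Pi16. The cluster led by Cxcl14 and Smoc2 held 866 and 598 cells, and its Col1a1 level was 1470 and 636 CPM, log2 ratio -1.21 (-1.26 to -1.16). In the cluster led by Pde11a and Grm8, with 269 and 184 cells, it was 1159 and 522 CPM, log2 ratio -1.15 (-1.32 to -0.99). In the cluster led by Sbspon and Spp1, with 195 and 213 cells, it was 1627 and 674 CPM, log2 ratio -1.27 (-1.37 to -1.17). The cluster led by Pi16 and Sema3c held 217 and 75 cells. There Col1a1 was at 1271 and 1281 CPM, log2 ratio 0.01 (-0.09 to 0.11), Col1a2 at 2025 and 1778 CPM, log2 ratio -0.19, and Col3a1 at 3293 and 2913 CPM, log2 ratio -0.18 (-0.24 to -0.11). The interval for Col1a1 in this cluster did not overlap those of the other 3, and whether the difference between clusters exceeds that between animals cannot be tested with 1 library per genotype.

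The clusters also differed in which chains they held. Col14a1 was at 872 CPM in both libraries in the Pi16 cluster, against 155 and 99.6 CPM in the Cxcl14 cluster and 3.86 and 2.34 CPM in the Sbspon cluster. Col15a1 showed the opposite distribution, at 11.7 and 18.7 CPM in the Pi16 cluster and 1151 and 1044 CPM in the Sbspon cluster. Col4a1 was at 2439 and 2789 CPM in the Cxcl14 cluster and 335 and 431 CPM in the Pi16 cluster, and was higher in the KO-labelled library in all 4 clusters, with log2 ratios of 0.19 to 0.63. The Sbspon cluster had the highest levels of Col9a2, at 135 and 192 CPM, Col28a1, at 227 and 308 CPM, and Col18a1, at 333 and 540 CPM. Within it the log2 ratios of the 3 were 0.51, 0.44 and 0.70, smaller than the 1.03, 0.99 and 0.78 over the class. Col8a1 was higher in the KO-labelled library in all 4 clusters, from a log2 ratio of 0.38 in the Sbspon cluster to 2.48 in the Pi16 cluster, where its level was 11.1 and 66.2 CPM.

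**Figure D4:**
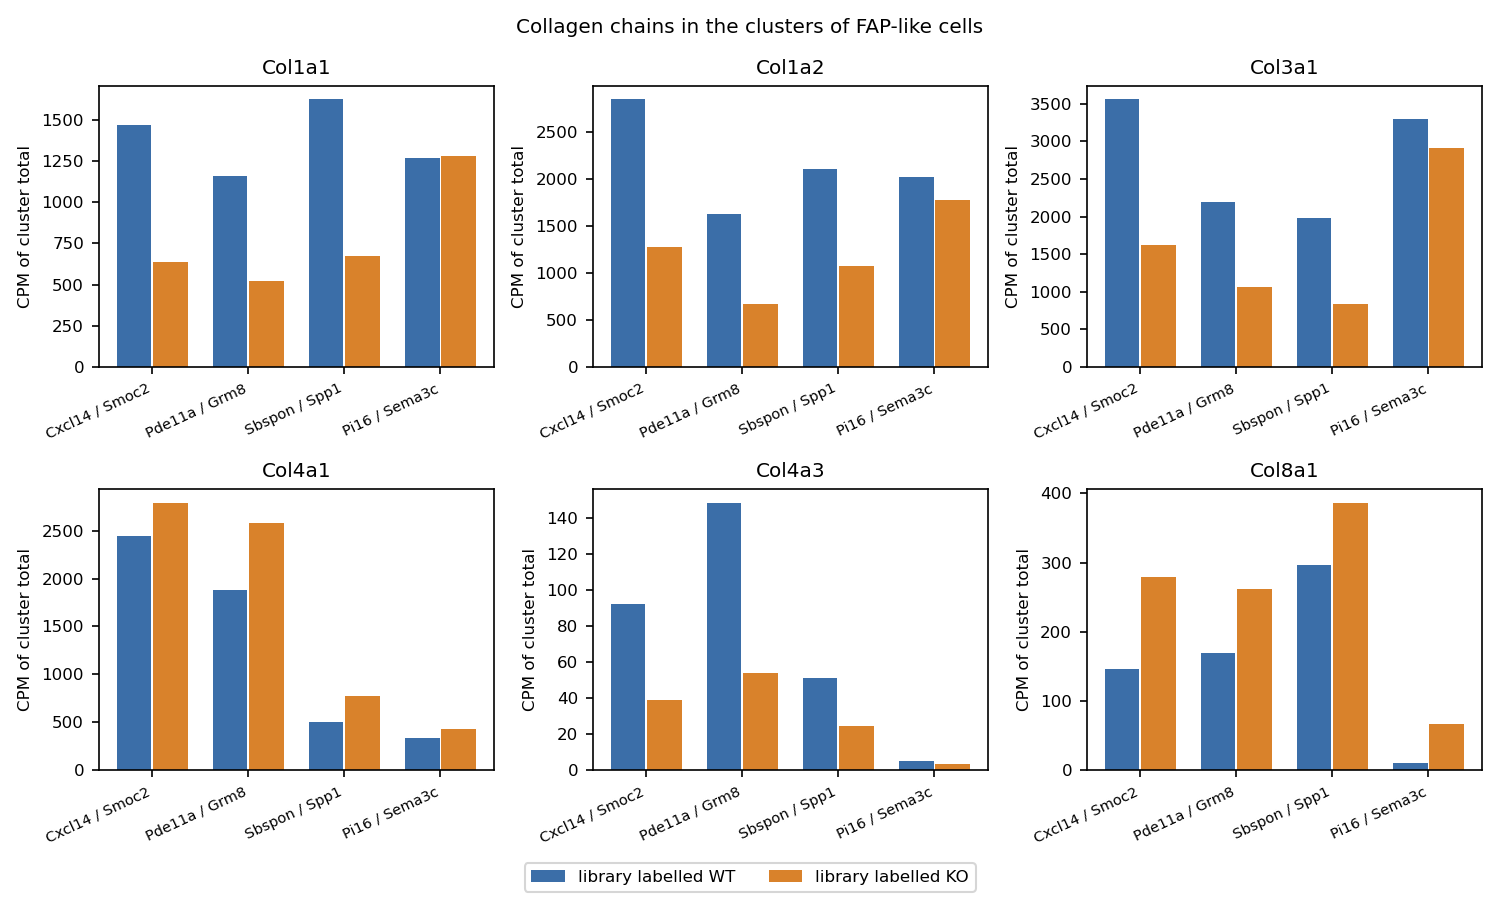
Level (CPM of the cluster total, linear axes from 0) of 6 collagen chains in the 4 clusters of FAP-like cells, each named by its leading genes, with the WT-labelled library in blue and the KO-labelled library in orange. For Col1a1 the bars of the Pi16 cluster are level (1271 and 1281 CPM), while in the other 3 clusters the KO-labelled library is at 522 to 674 CPM against 1159 to 1627 CPM.

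A finer resolution split the FAP-like cells further, and the groups given here were chosen after their values were seen. In the group led by C7 and Gdf10, with 337 and 418 cells, Col1a1 was at 1666 and 573 CPM, log2 ratio -1.54, and Col4a1 at 1556 and 2885 CPM, log2 ratio 0.89. In the group led by Sbspon and Sorcs3, with 77 and 108 cells, Col1a1 was low in both libraries, at 562 and 486 CPM, log2 ratio -0.21 (-0.45 to 0.04). Col1a2 and Col3a1 stood there at log2 ratios of 0.03 and -0.2. The group led by Apod and Spp1, with 166 and 156 cells, had Col1a1 at 1940 and 845 CPM, log2 ratio -1.20. The ratio of the Sbspon and Spp1 cluster above was thus not shared by all cells led by Sbspon. The group led by Mme and Nmb held 431 and 97 cells. Its Col4a1 was level between the libraries, at 3266 and 3285 CPM, log2 ratio 0.01 (-0.05 to 0.06), while its Col1a1 was at 1350 and 591 CPM.

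Tenocyte-like cells, 756 and 571 in the libraries labelled WT and KO, had the highest levels of the type I chains. These levels too were lower in the KO-labelled library, as shares of all UMIs. Their summed collagen level had a log2 ratio of -0.90 (-0.91 to -0.88). Of the 27 chains past the floors, 9 were at least 2-fold lower (33.3%) and 0 at least 2-fold higher, against 2.4% and 3.0% of 8233 genes. The median log2 ratio was -0.51, against 0.05 over all genes. Median depth was 4230 and 8308 UMIs per cell, Tnmd itself was lower in the KO-labelled library, and the summed level of the 9 tenocyte markers was 25230 and 22166 CPM. That of the 13 FAP markers in these cells was 23026 and 16567 CPM, and that of the 9 satellite cell markers 1227 and 2162 CPM. Their part in the result was not tested.

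Col1a1 was at 6214 CPM in the WT-labelled library (interval 6132 to 6296) and 2141 CPM in the KO-labelled library (2101 to 2182), log2 ratio -1.54 (-1.57 to -1.50). Col1a2 was at 6878 and 2820 CPM, log2 ratio -1.29 (-1.32 to -1.26), so that the proportion of Col1a1 to Col1a2 UMIs was 0.903 and 0.759. The counting intervals of this proportion did not overlap in tenocyte-like cells and overlapped in FAP-like cells. Col3a1 was at 622 and 302 CPM, log2 ratio -1.04, and was -0.52 with a stricter gate on tenocyte markers and -0.51 with classes taken from marker lists alone. Type XI chains, which are fibrillar chains of cartilage and developing tendon, were lower too, Col11a1 at 857 and 484 CPM (log2 ratio -0.82) and Col11a2 at 73.9 and 24.7 CPM (-1.54). The minor fibrillar chain Col24a1 was at 106 and 73.8 CPM.

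The FACITs of tendon lay on the same side. Col12a1, which coats type I fibrils was at 1693 and 1168 CPM, log2 ratio -0.53 (-0.59 to -0.48). Col22a1, known from the junction of muscle and tendon, was above free RNA in this class alone, at 417 and 206 CPM, log2 ratio -1.02 (-1.14 to -0.90). It was concentrated in the smaller tenocyte cluster, led by Fat3 and Adamts3 with 94 and 119 cells, at 1342 and 242 CPM, log2 ratio -2.47, against 349 and 201 CPM in the larger cluster, led by Fmod and Tnmd, log2 ratio -0.79. It is itself among the leading genes of the smaller cluster, so its concentration there is a description. With the clusters given equal weight its log2 ratio was -1.93. Of the 9 tenocyte markers, 3 counted toward the name of the smaller cluster and 9 toward that of the larger. Col14a1 was at 49.9 and 21.7 CPM, log2 ratio -1.17, but its direction turned with the stricter gate (0.04) and with marker lists alone (0.05).

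Col8a1 and Col8a2, the chains of type VIII collagen, were at 244 and 79.2 CPM (log2 ratio -1.61) and at 69.1 and 28.9 CPM (-1.23). Col8a1 was thus lower in tenocyte-like and higher in FAP-like cells of the KO-labelled library. Its upstream window, the 250 bases before the RefSeq start on GRCm38.p6 (chr16:57754738-57754987, minus strand), is shown because its ratios in FAP- and tenocyte-like cells lay farther apart on opposite sides of 0 than those of any other chain above free RNA in both, with capitals as above.
Col8a1: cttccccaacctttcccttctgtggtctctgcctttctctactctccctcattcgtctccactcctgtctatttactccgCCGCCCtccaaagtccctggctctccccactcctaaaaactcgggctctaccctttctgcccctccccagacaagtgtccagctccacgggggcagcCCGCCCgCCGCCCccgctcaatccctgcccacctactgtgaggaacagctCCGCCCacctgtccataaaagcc
It holds 4 copies of CCGCCC, the reverse of GGGCGG, and neither other motif. In contrast to the fibrillar chains, Col4a1 and Col4a2 were higher in tenocyte-like cells of the KO-labelled library, at 660 and 1269 CPM (log2 ratio 0.94) and at 310 and 537 CPM (0.79). Among the type VI chains, Col6a3 was at 229 and 171 CPM, log2 ratio -0.42 (-0.56 to -0.28), Col6a1 at 410 and 366 CPM, log2 ratio -0.16 (-0.26 to -0.06), and Col6a2 at 303 and 282 CPM, log2 ratio -0.10 (-0.22 to 0.01). The 7 capillary endothelial markers summed to 241 and 460 CPM in these cells, and their part in the type IV ratios was not tested.

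At the finer resolution 3 groups of tenocyte-like cells were separated, and their values were seen before they were chosen. The group led by Wif1 and Chad, with 127 and 57 cells, had the highest Col1a1 level of all, at 12874 and 2562 CPM, log2 ratio -2.33 (-2.41 to -2.25). In the group led by Thbs4 and Kera, with 534 and 395 cells, Col1a1 was at 4108 and 2147 CPM, log2 ratio -0.94. In that led by Fat3 and Adamts3, with 95 and 119 cells, it was at 5526 and 1621 CPM, log2 ratio -1.77. In the Thbs4 group, the largest, the log2 ratios of Col1a2 and Col3a1 were -0.75 and -0.99. Neither these chains nor Col1a1 were at least 2-fold lower there, while Col8a1 was, at -1.50. The class ratios of -1.54 for Col1a1 and -1.29 for Col1a2 pool all 3 groups. The part of the Wif1 group in them was not tested.

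The genes that fold, modify, secrete and crosslink collagen were taken from a list of 41 symbols, of which 40 were in the data. In FAP-like cells 34 were past the floors, 1 was at least 2-fold lower and 0 were at least 2-fold higher, with a median log2 ratio of -0.37. That is 2.94% lower, close to the 2.48% over all genes, where 3.54% were higher. The 1 was Colgalt2, a collagen galactosyltransferase, at 83.1 and 37.0 CPM, log2 ratio -1.15. Serpinh1, the collagen chaperone of the endoplasmic reticulum, went the other way, at 598 and 983 CPM, log2 ratio 0.72. In tenocyte-like cells 36 were past the floors, with 3 at least 2-fold lower (8.33%), 0 higher and a median of -0.07, against 2.4% lower and 3.0% higher over all genes. These 3 were Pcolce2, an enhancer of procollagen cleavage, at 139 and 50.4 CPM, Adamts2, the protease that removes the amino-terminal propeptide, at 62.0 and 24.7 CPM, and Sparc, a collagen-binding matrix protein, at 7095 and 3510 CPM. The crosslinking enzyme gene Lox was at 622 and 1029 CPM there and Serpinh1 at 688 and 1183 CPM. Type I chains and their chaperone therefore stood on opposite sides of 0 in both classes.

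Type IV chains were the largest family in endothelial-, pericyte- and smooth muscle-like cells. In arterial endothelial-like cells they took 41.7% and 57.6% of the collagen UMIs. In mural intermediate-like cells the fibrillar chains were the largest family, at 53.4% and 47.8%. In capillary endothelial-like cells, 1642 and 4596 in number, Col4a1 was at 1192 and 1212 CPM, log2 ratio 0.02 (-0.02 to 0.07), and Col4a2 at 613 and 700 CPM. The chains at lower level differed: Col15a1 was at 71.9 and 29.4 CPM, log2 ratio -1.26 (-1.50 to -1.08), and the transmembrane chain Col13a1 at 33.7 and 11.8 CPM, log2 ratio -1.45 (-1.83 to -1.20). Of 9 chains past the floors 4 were at least 2-fold lower, and 0 at least 2-fold higher, against 1.59% and 0.483% of 8278 genes, but the other 2, Col1a1 and Col1a2, were below the free RNA bar. Col13a1 was concentrated in the cluster led by Slc1a1, at 90.2 and 24.9 CPM. With each library clustered alone its log2 ratio was -0.36. Col15a1 had log2 ratios of -1.66 and -1.38 in the clusters led by Gm12002 and Slc1a1. In the cluster led by Hbb-bs, with 767 and 648 cells, it was at 40.8 and 33.6 CPM, log2 ratio -0.27 (-0.90 to 0.34). Processing genes gave 21 past the floors, with 0 at least 2-fold apart in either direction.

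Larger vessels carried other chains beside type IV. Arterial endothelial-like cells held Col8a1 at 356 and 262 CPM, the highest level of any class in the WT-labelled library but below FAP-like cells in the KO-labelled library, log2 ratio -0.44 (-0.54 to -0.35), and Col5a2 at 157 and 95.6 CPM and Col18a1 at 78.6 and 68.4 CPM were their only other chains above free RNA. None of their 5 chains past the floors was 2-fold apart, against 0.653% of 7963 genes at least 2-fold lower and 0.414% higher. Their Col4a1 was at 327 and 415 CPM and Col4a2 at 140 and 235 CPM, with log2 ratios of 0.34 and 0.74. In venous endothelial-like cells the chains were Col4a1 at 391 and 562 CPM, Col4a2 at 295 and 401 CPM, Col15a1 at 246 and 209 CPM, Col13a1 at 57.8 and 49.3 CPM and Col18a1 at 49.1 and 63.3 CPM. Of their 6 chains past the floors 1, Col5a2, was at least 2-fold lower, and 0 at least 2-fold higher, against 1.81% and 1.5% of 6247 genes, and Col5a2 was below the free RNA bar. Among processing genes of this class, Serpinh1 was at 120 and 254 CPM, the 1 of 18 at least 2-fold higher.

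Pericyte-like cells, which share a basement membrane with the endothelium, held Col4a1 at 1456 and 2184 CPM, log2 ratio 0.58 (0.53 to 0.64), and Col4a2 at 764 and 1057 CPM, log2 ratio 0.47 (0.39 to 0.55). Col6a3 followed at 239 and 223 CPM, then Col5a3 at 158 and 210 CPM and Col5a2 at 208 and 141 CPM. Of 18 chains past the floors 3 were at least 2-fold lower, and 0 at least 2-fold higher, against 1.94% and 0.923% of 8670 genes. Col15a1 was at 88.0 and 33.4 CPM, log2 ratio -1.37 (-1.68 to -1.11), Col4a4 at 47.1 and 22.6 CPM, log2 ratio -1.03, and the third, Col1a2, was below the free RNA bar. Col25a1, a transmembrane chain, was above free RNA only here, at 38.5 and 52.2 CPM, and in mural intermediate-like cells, at 43.0 and 60.3 CPM.

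Smooth muscle-like cells were the class with most Col4a5, at 181 and 156 CPM, and Col4a6, at 65.6 and 65.0 CPM, the chains of the third type IV trimer, whose genes are neighbours on the X chromosome. The ratio of their UMIs was 2.75 and 2.40. Col4a1 was at 479 and 616 CPM, Col4a2 at 302 and 382 CPM, Col18a1 at 167 and 176 CPM and Col6a3 at 103 and 89.6 CPM. Of 13 chains past the floors 2 were at least 2-fold higher and 1 lower, against 0.633% of 7272 genes in each direction. Col12a1, at 14.9 and 36.6 CPM, log2 ratio 1.24 (0.76 to 1.87), was the 1 of these above free RNA. Mural intermediate-like cells held Col3a1 at 1171 and 955 CPM, more than any class but FAP-like cells, with Col4a1 at 747 and 937 CPM, Col5a2 at 425 and 417 CPM, Col4a2 at 367 and 478 CPM and Col1a2 at 362 and 211 CPM. None of their 16 chains past the floors was 2-fold apart, against 1.17% of 4885 genes at least 2-fold lower and 1.19% higher.

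**Figure D5:**
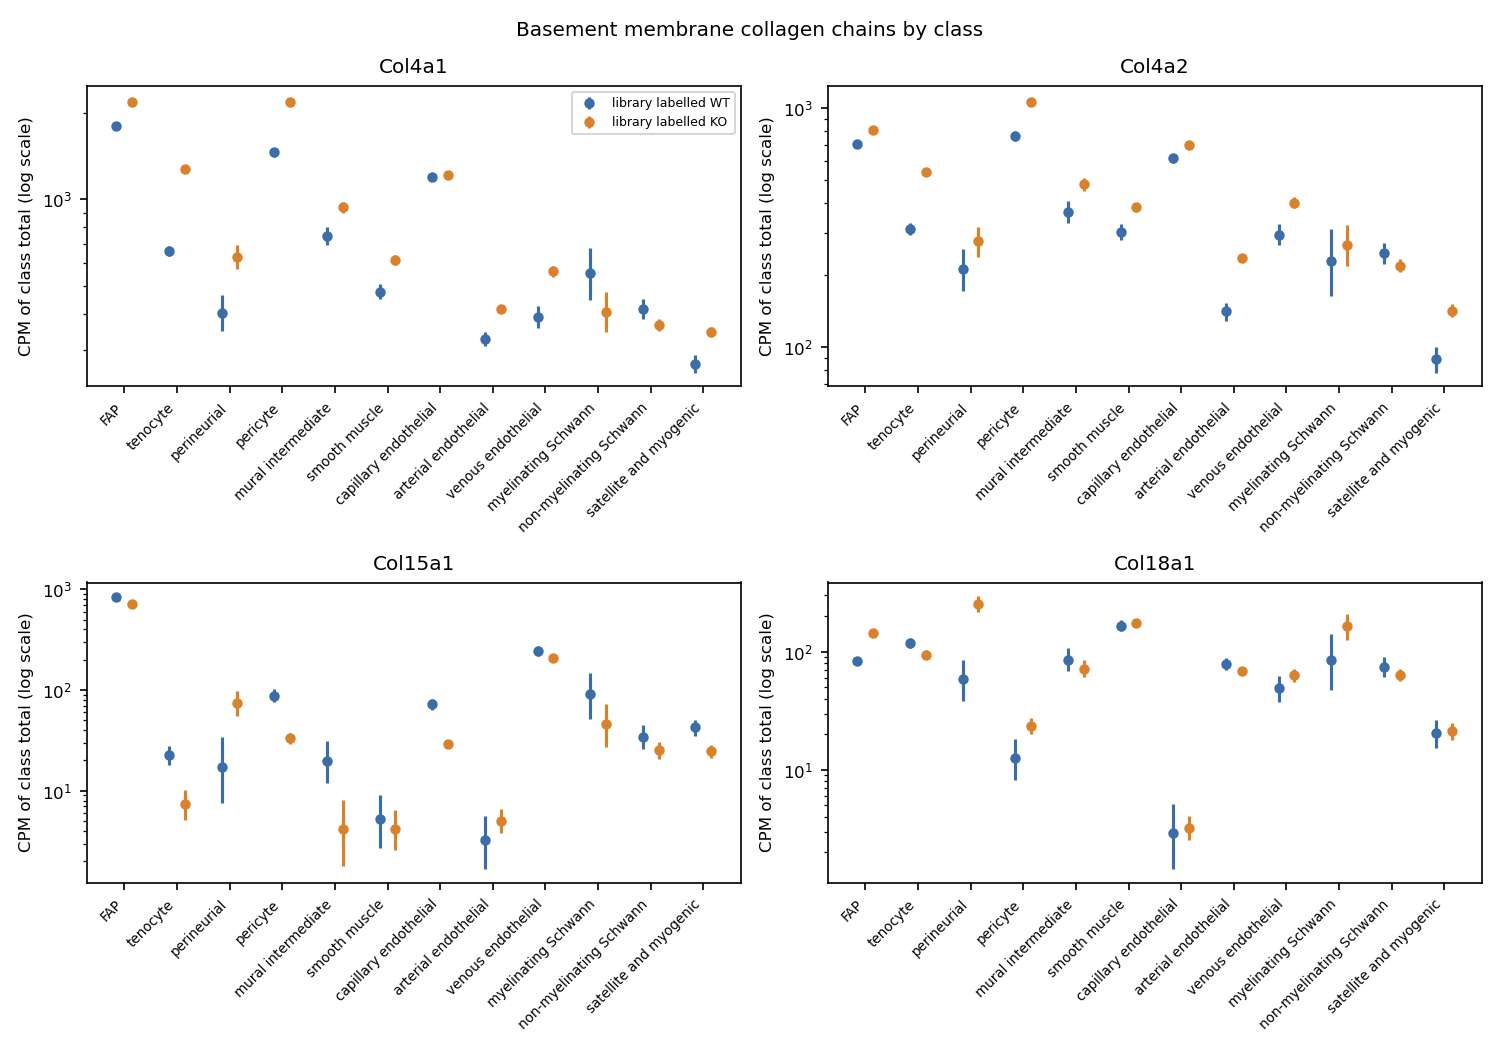
Level (CPM of the class total, log axis) of Col4a1, Col4a2, Col15a1 and Col18a1 in 12 classes, with points for each library and bars for the exact 95% Poisson interval. Col4a1 is higher in the KO-labelled library in pericyte-like cells (1456 and 2184 CPM) and level in capillary endothelial-like cells (1192 and 1212 CPM), and Col18a1 in perineurial-like cells is at 58.6 and 255 CPM.

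In non-myelinating Schwann-like cells, 459 and 721 in number, the FACIT Col20a1 led, at 833 and 701 CPM, log2 ratio -0.25 (-0.35 to -0.15), against no more than 17.3 CPM in any other class. A sense-strand annotation overlaps 741 bases of this gene, so some of its UMIs may be uncertain. It was followed by Col1a2 at 501 and 429 CPM, Col4a1 at 415 and 366 CPM, Col5a3 at 317 and 268 CPM and Col5a2 at 308 and 275 CPM. The fibrillar chain Col27a1, at 283 and 267 CPM, and the FACIT Col16a1, at 164 and 183 CPM, also had their highest mean level there. Col1a1 did not follow Col1a2: it was at 93.4 and 33.2 CPM and below the free RNA bar. Of 21 chains past the floors 1 was at least 2-fold higher and 2 lower, against 0.517% and 0.636% of 7542 genes, and all 3 were below the free RNA bar. The lead of Col20a1 was not shared by all clusters of the class. In the cluster led by Gm20754 and Tafa1, with 308 and 499 cells, it was at 1033 and 862 CPM. In that led by Cadm2 and Gfra3, with 151 and 222 cells, it was at 193 and 118 CPM. There Col3a1, at 571 and 359 CPM, and Col4a1, at 529 and 472 CPM, were higher.

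Myelinating Schwann-like cells were few, 61 and 96, and their values are coarse. Col1a2 was at 713 and 502 CPM, Col4a1 at 553 and 407 CPM, Col24a1 at 342 and 415 CPM, Col12a1 at 308 and 255 CPM and Col4a2 at 228 and 265 CPM. Col24a1 and the transmembrane chain Col23a1, at 200 and 211 CPM, had their highest mean level in this class. Col28a1 was at 79.9 CPM (14 UMIs) and 234 CPM (91 UMIs), log2 ratio 1.54 (0.73 to 2.48), and was the 1 of 10 chains past the floors that was at least 2-fold apart, against 5.66% of 1149 genes higher and 3.13% lower. Col16a1, under the floors at 7 and 32 UMIs, had a log2 ratio of 1.03 whose interval ran from -0.16 to 2.47. Col9a1 was above free RNA in this class alone, on 4 and 8 UMIs.

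Perineurial-like cells, 142 and 128, held Col4a1 at 404 and 632 CPM, Col3a1 at 369 and 430 CPM, Col1a2 at 419 and 372 CPM, Col5a2 at 341 and 368 CPM and Col1a1 at 221 and 314 CPM. The fibrillar chains together were at 1572 and 1765 CPM, log2 ratio 0.17 (0.03 to 0.30), with Col1a2 and Col5a1, at 60.8 and 42.3 CPM, below 0 and with intervals that span 0. The class also had the highest levels of Col4a4, at 250 and 117 CPM, log2 ratio -1.09 (-1.53 to -0.67), and Col4a3, at 154 and 65.6 CPM, log2 ratio -1.22 (-1.80 to -0.67). These genes lie side by side on chromosome 1 and were lower in the KO-labelled library in perineurial-, FAP- and pericyte-like cells. Col4a3 was at 36.5 and 18.2 CPM in pericyte-like cells. It was above free RNA in capillary endothelial-like cells too, and lower in the KO-labelled library. Its log2 ratios there were -0.63, -1.27 and -1.75 in the clusters led by Gm12002, Slc1a1 and Hbb-bs. Col4a4 was not lower in non-myelinating Schwann-like cells, the other class where it was above free RNA. Its log2 ratio there was 0.14 (-0.17 to 0.46) in the cluster led by Gm20754 and 0.03 (-0.97 to 1.12) in that led by Cadm2. In perineurial-like cells Col8a1 was at 300 and 139 CPM, log2 ratio -1.11 (-1.50 to -0.72). Col18a1 (ENSMUSG00000001435; chromosome 10, 77052178 to 77166548, minus strand), whose protein carries the endostatin domain, was at 58.6 CPM (27 UMIs) and 255 CPM (175 UMIs). Its log2 ratio of 2.10 (1.53 to 2.77) was the highest of any chain above free RNA in any class. Of 14 chains past the floors 3 were at least 2-fold lower and 1 higher, against 3.4% and 4.33% of 2473 genes. Summed perineurial markers were at 3905 and 3320 CPM in the class, but summed FAP markers were higher, at 18201 and 17133 CPM. Under the strict per-cell gate, which asks for more UMIs of the class list than of any other list, 3 and 4 cells were left. The name of the class is therefore uncertain. The 5 erythroid markers summed to 13.0 CPM, with 1 of them at 0, in the WT-labelled library and to 16618 CPM, with 0 of them at 0, in the KO-labelled library, and their part in these ratios was not tested.

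Satellite and myogenic-like cells, 852 and 1048, were the only class with Col19a1 (ENSMUSG00000026141; chromosome 1, 24261890 to 24587472, minus strand) above free RNA. This FACIT was at 355 and 233 CPM, log2 ratio -0.60 (-0.72 to -0.49), against at most 10.5 CPM in any other class, and at log2 ratios of -0.61 and -0.62 in the 2 clusters of the class. Col4a1 was at 269 and 347 CPM, Col5a2 at 290 and 250 CPM, Col3a1 at 251 and 129 CPM and Col4a2 at 88.5 and 142 CPM, the last below the free RNA bar. Of 18 chains past the floors 2 were at least 2-fold lower and 0 higher, against 2.2% and 3.34% of 7897 genes. Col4a6 was at 23.2 and 10.6 CPM, log2 ratio -1.06 (-1.63 to -0.64). Col4a5, below the bar in the KO-labelled library, was at 30.9 and 7.97 CPM.

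Col14a1 was the only chain above free RNA in macrophage and monocyte-like cells, at 34.1 and 16.6 CPM on 70 and 67 UMIs. It lay almost wholly in the cluster led by Mrc1, at 41.2 and 38.5 CPM, log2 ratio -0.09 (-0.60 to 0.41), with 265 and 150 cells, while the cluster led by Chil3, with 77 and 176 cells, held 2 and 0 of its UMIs. Of its 3 chains past the floors 1 was at least 2-fold higher and 0 lower, against 4.02% and 2.64% of 6623 genes. No chain was above free RNA in myofibre-like cells. In T cell-, B cell- and neutrophil-like cells, from which the free RNA level was read, the rule says nothing. Col4a1, the top chain of the T cell- and myofibre-like classes by mean CPM, was at 18.9 and 79.5 CPM and at 27.5 and 45.6 CPM there. In T cell-like cells of the KO-labelled library 1 cell held 76.5% of those UMIs. It was the 1 chain past the floors in each of these classes, at least 2-fold higher in T cell-like cells, where 1.5% of 3394 genes were higher and 1.21% lower, and not in myofibre-like cells, where 1.85% of 3293 genes were higher and 0.547% lower. B cell- and neutrophil-like cells had 0 chains past the floors, beside 1.73% and 6.59% of genes at least 2-fold higher and 0.461% and 3.85% lower. B cell-like cells held 169 and 796 CPM of all chains together, the second above the pooled free RNA level of 271 CPM, and their summed FAP markers were at 169 and 2133 CPM.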

How the data were processed

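Whole numbers of UMIs per gene and cell barcode, the raw counts deposited by the authors, were used as they stand. Cell Ranger 9.0.0 and mm10 are named per the submitters' processing notes, while per the file headers the WT-labelled library was made with version 8.0.0 and the KO-labelled library with 9.0.0. Depth is given as total UMIs per library in the report.

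Cells were retained from 500 detected genes upward and up to a mitochondrial share of 10%, and doublets called by Scrublet were removed (0.836% and 3.49% of barcodes against 4.54% and 7.81% expected, so doublets may remain). Clustering used 2000 variable genes per library without collagen chain or mitochondrial genes, 30 principal components, 20 neighbours and Leiden resolution 1. Clusters were named from marker lists, each cell had to hold 2 UMIs of its class list, and UMIs were summed per class and library. Log2 ratios used a pseudocount of 1 CPM, with exact 95% Poisson and conditional binomial intervals. The arithmetic was tested on simulated data. Python 3.11.15, scanpy 1.11.5, scikit-learn 1.9.0, leidenalg 0.10.2, scipy 1.17.1, numpy 2.4.6 and matplotlib 3.10.9 were used.

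Genes named are the 5 highest members of each class, members above free RNA at a log2 ratio of at least 1 in size, processing genes at least 2-fold apart in FAP-, tenocyte- and endothelial-like cells, and the marker checks. Other members named were chosen after their values were seen. The members and lists were chosen with earlier results of these data known. Promoter sequences are from RefSeq on GRCm38.p6 and gene positions from GENCODE M21, which holds all 44 members.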

Additional observations from a re-analysis of the deposited data

Results flagged for a closer look

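Col8a1 had a log2 ratio, KO over WT, of -1.61 in tenocyte-like cells and 0.95 in FAP-like cells, opposite directions in 2 classes of the same libraries. The difference between the classes was not tested, since each genotype has 1 library.

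Collagen was also found in clusters that took no class name and entered no comparison. A cluster led by haemoglobin genes held 2867 cells of the KO-labelled library and 1 of the WT-labelled library. In the KO-labelled library its summed collagen level was 3249.7 CPM, against 3718.6 CPM in the rest of that library. Col1a1 was at 206.5 CPM there and 238.6 CPM in the rest, Col3a1 at 352.7 and 271.5 CPM and Col4a1 at 769.4 and 1031.6 CPM. Its cells had a median of 1348 UMIs, and whether they made these transcripts themselves was not tested. A cluster led by Cdh23, which had under 3 detected markers of any list, held 402 and 834 cells. Its summed collagen level was 2254.2 CPM in the WT-labelled library and 3006.4 CPM in the KO-labelled library. Its leading chain was Col4a1, at 1103.5 and 1391.4 CPM, followed by Col4a2, at 772 and 1316.9 CPM, with Col1a1 at 30.9 and 16.7 CPM.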

How the results depend on the processing

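The log2 ratio of summed collagen stayed below 0 in both classes under every setting run. In FAP-like cells, -0.493 became -0.533 with each library clustered alone, -0.672 with marker lists alone, -0.424 with TMM scaling, -0.407 with clusters weighted equally and -0.514 with free RNA subtracted. In tenocyte-like cells, -0.897 became -0.704 with a strict per-cell gate, -0.695 with marker lists alone, -0.869 with TMM scaling, -0.797 with cells thinned to 2000 UMIs, -0.79 with cells weighted equally, -0.875 with clusters weighted equally and -0.922 with free RNA subtracted. The count of chains at least 2-fold lower in FAP-like cells, 6, was 3 with TMM scaling and with clusters weighted equally. The count at least 2-fold higher, 1, was 4 with each library clustered alone, 3 with TMM scaling, 2 with the strict gate, thinning, cells weighted equally or free RNA subtracted, and 0 with marker lists alone, clusters weighted equally, a floor of 50 CPM or a pseudocount of 5 CPM. The count of processing genes at least 2-fold apart, 1, was 3 with thinning and 2 with clusters weighted equally, free RNA subtracted or no CPM floor. Leaving out a FAP-like cluster was chosen after seeing the data: without the Pi16 cluster the summed ratio was -0.57 and 0 chains were at least 2-fold higher, and without the Sbspon cluster it was -0.459 and 3 chains were at least 2-fold lower. Col14a1 in tenocyte-like cells reversed to 0.042 with the strict gate and 0.049 with marker lists alone. The cause was not tested in any of these cases. The TMM factor was over 0.1 in size in neutrophil-like (-0.381) and pericyte-like (-0.111) cells. No paired analysis was possible because each genotype has 1 library, and no replicate could be left out. Myelinating Schwann- and perineurial-like cells are few, and their ratios are limited by counts.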
